A study of Drosophila melanogaster with 9 samples.

Results

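The genes described here are those that encode the subunits of the proteasome of Drosophila melanogaster. They were chosen by name alone, as the rows of the expression table whose gene identifiers carry a symbol that starts with Prosalpha, Prosbeta, Rpn or Rpt followed by a digit. The rule found 47 genes among the 15682 in the table. Of these, 32 are constitutive subunits and 15 are paralogs whose symbols end in T or R, a suffix given to copies related to testis subunits. The rule fits 48 symbols of the annotation, and the remaining one, Prosalpha4T1, was not analysed here. By place in the particle, the constitutive genes are 7 of the alpha ring, 7 of the beta ring, 6 ATPases of the base, 4 other base subunits and 8 subunits of the lid.

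The proteasome degrades proteins that carry ubiquitin chains. Its core particle is a stack of alpha and beta rings, and the beta subunits Prosbeta1, Prosbeta2 and Prosbeta5 are its proteases. The regulatory particle sits on the core, where a ring of Rpt ATPases unfolds substrates and threads them through the alpha ring, Rpn1, Rpn10 and Rpn13 bind ubiquitin, and the lid subunit Rpn11 removes the ubiquitin chain before the substrate enters. In the fly embryo the earliest proteins are made from RNA that the mother stored in the egg, and proteolysis takes part in clearing maternal proteins as the zygotic genome takes over. In Drosophila, several subunits have a second copy that replaces the usual one in the male germ line.

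RNA sequencing of polyadenylated RNA was performed on hand-sorted embryos at stage 5, when the first cell layer forms, after a collection of 2 h and a further 1 h at 25 °C. There were 3 groups of 3 libraries, named by their titles. OregonR is a wild-type strain. The titles of the other groups, ataxin-7 and non-stop, are the names of 2 genes that encode subunits of the deubiquitinase module of SAGA, a co-activator of transcription that removes ubiquitin from histones. No further allele, driver or treatment is given by the labels. OregonR and ataxin-7 belong to experiment 1013 and non-stop to experiment 1190, so that in each comparison with non-stop the genotype and the experiment cannot be told apart. The labels call the libraries biological triplicates without saying whether they came from separate collections, and p-values measure the spread between these libraries.

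Several properties of the libraries bear on every comparison. RNA of non-stop (gene symbol not) was between 0.608 and 1.11 RPKM (reads divided by the gene length and the depth of the library) in the non-stop libraries against 45.0 to 56.7 RPKM in the other 6. Atxn7 RNA stood at 21.9, 25.5 and 28.0 RPKM in the libraries labelled ataxin-7, above the 18.0 to 19.8 of OregonR, and the genotype tags of replicates 2 and 3 name other ataxin numbers. The non-stop libraries held 36.9 to 39.3 M reads in genes and the others 74.8 to 89.99 M. Stage markers moved with the groups. The summed RPKM of 26 early zygotic genes ranged from 3216 to 3478 in OregonR, was 486, 1353 and 2069 in ataxin-7 replicates 1, 2 and 3, and ranged from 355 to 405 in non-stop. The sum of 15 maternal genes ranged from 270.2 to 497, from 685 to 1329 and from 1196 to 1325 in the same order. The sum of 8 pole cell genes was 90.2 to 126 in OregonR, 337, 114 and 108 in the ataxin-7 replicates, and 202 to 243 in non-stop. Of these genes, osk and gcl are also in the maternal list, so the maternal and pole cell sums are not independent. The means of osk and gcl were 2.41 and 12.4 RPKM in OregonR and 60.1 and 54.5 in non-stop. The pole cell gene aub went the other way, from 34.3 to 23.7 RPKM. Of 13 follicle cell genes, 4 were listed at 0 in all 9 libraries and the summed RPKM of the list stayed between 0.705 and 1.13. Ataxin-7 replicate 1 stood apart from its group in the early zygotic, maternal and pole cell sums. Most results that rest on this replicate are given with and without it. In whole embryos, fewer cells of a type and less RNA per cell cannot be told apart, and the part of these marker differences in the results below was not tested.

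All 32 constitutive genes were expressed in every library, and the genes of the core particle were far more abundant than most genes of the regulatory particle. In OregonR, the mean level of the 14 core genes ranged from 62.7 to 408 RPKM, 6.51-fold. The lowest, Prosalpha1 at 62.7 ± 2.71 (SD, n = 3), lay among the regulatory genes, and the other 13 lay between 133 and 408 RPKM, 3.08-fold. Counting may have split reads between Prosalpha1 and its neighbouring copy Prosalpha1R, described below. The level of Prosalpha1 here and in later paragraphs, and the 6.51-fold range, are therefore uncertain. Of the regulatory genes, Rpt4 at 221 ± 19.3 RPKM and Rpn12 at 328 ± 14.9 (SD, n = 3) were within the range of those 13, and the other 16 lay below it, between 4.598 and 117 RPKM. The most abundant constitutive transcript was Prosalpha6, an alpha ring subunit, with 404, 436 and 385 RPKM in the OregonR libraries. The least abundant was Rpn8, the lid partner of Rpn11, with 4.94, 4.97 and 3.89 RPKM. The table divides reads by the genomic span, which is 4500 bases for Rpn8 with 1532 bases of exons. Per kilobase of exons the level of Rpn8 was 13.5, still the lowest of the 32 genes. Levels by exon length kept Prosalpha6 first, at 439.

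**Figure D1:**
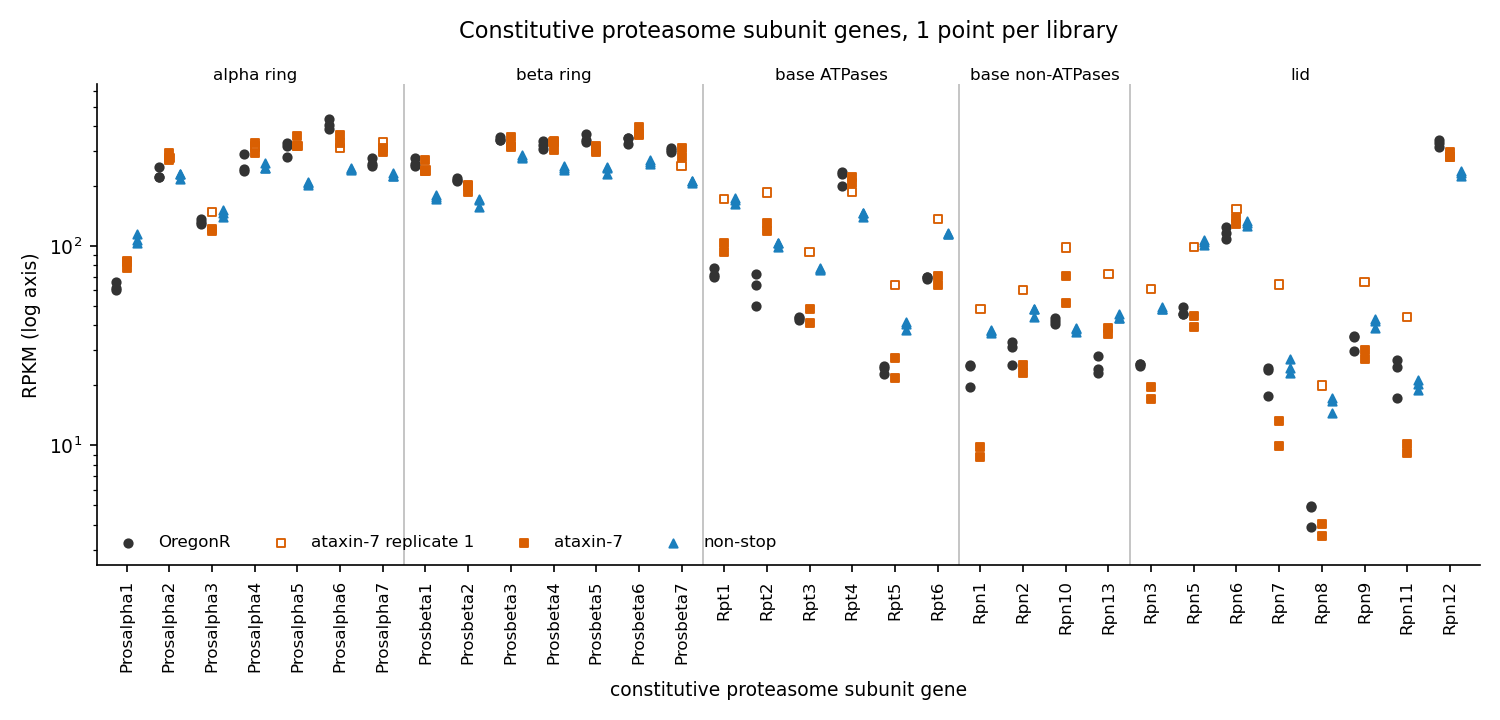
RPKM of the 32 constitutive proteasome genes (log axis) in the 9 libraries, 1 point per library, by group and place in the particle; open squares are ataxin-7 replicate 1. In OregonR the core genes without Prosalpha1 sit between 133 and 408 RPKM in the mean, and 16 regulatory genes lie between 4.598 and 117.

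The balance between the RNA of the core genes and that of the regulatory genes differed between libraries. The ratio of the summed RPKM of the 14 core genes to that of the 18 regulatory genes, which no scaling of a whole library changes, was 3.02, 2.96 and 3.45 in OregonR. It was 2.07, 2.07 and 2.13 in non-stop. In ataxin-7 it was 1.99, 2.90 and 3.34, so that replicate 1 was below every OregonR and every non-stop library, replicate 2 was just below the OregonR range and replicate 3 was within it. Both sums contributed. The core sum was 3718, 3784 and 3900 RPKM in OregonR, 3801, 3685 and 4043 in ataxin-7, and 2923, 3017 and 3052 in non-stop. The regulatory sum was 1232, 1278 and 1131 RPKM in OregonR, 1908, 1272 and 1212 in ataxin-7, and 1409, 1455 and 1433 in non-stop. The non-stop libraries were therefore lowest for the core and above all OregonR libraries for the regulatory genes. Together the constitutive genes took between 0.617% and 0.793% of the reads in genes, with the highest share in ataxin-7 replicate 1. The ratio computed per kilobase of exons was 3.002 to 3.51 in OregonR and 2.12 to 2.18 in non-stop. Without Rpt4 and Rpn12 the ratio in RPKM was 5.40 to 6.30 in OregonR and 2.80 to 2.91 in non-stop. It was 2.64, 4.70 and 5.82 in the ataxin-7 replicates. Most other genes as abundant as the core genes were also lower in non-stop than in OregonR, as given below. Nothing was tested on these sums, since the members were chosen with earlier results known.

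**Figure D2:**
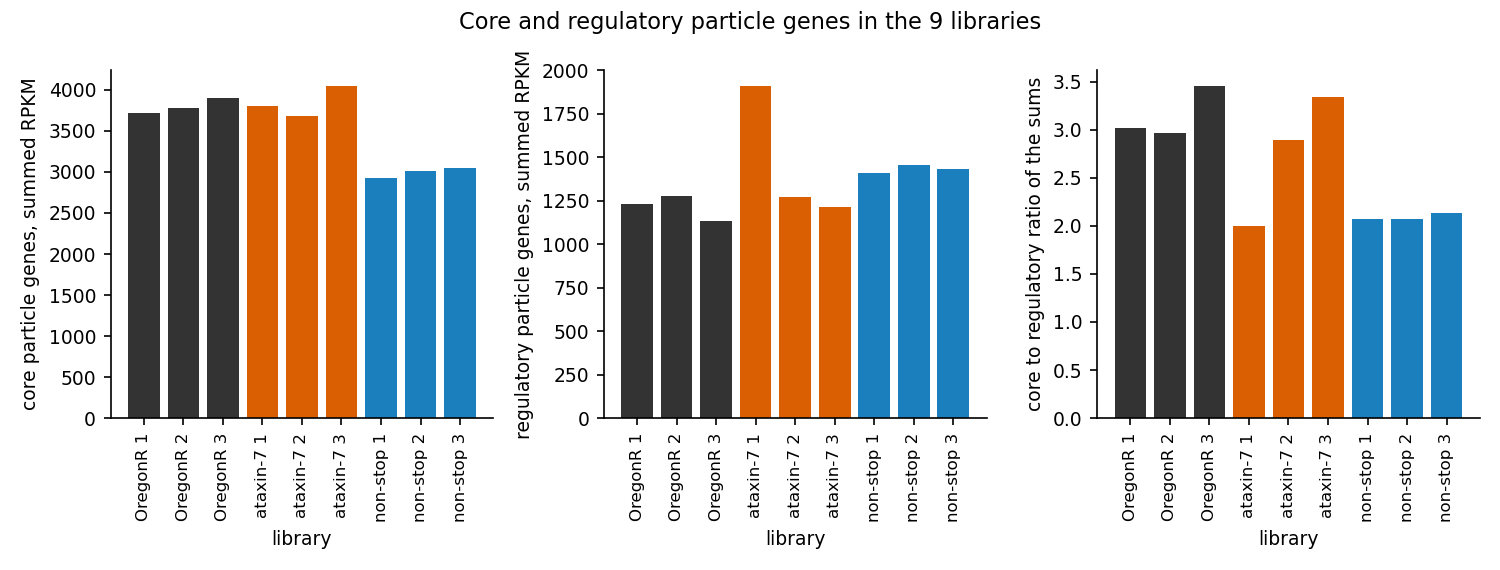
Summed RPKM of the 14 core genes (left) and the 18 regulatory genes (middle), and the ratio of the 2 sums (right), 1 bar per library. The ratio is between 2.96 and 3.45 in OregonR, between 2.07 and 2.13 in non-stop, and 1.99 in ataxin-7 replicate 1.

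Against OregonR, the regulatory genes of the non-stop libraries were mostly higher and the core genes mostly lower on the deposited scaling, while quantile normalization turned the core genes mostly higher. Of the 34 members above the filter (3 or more libraries with 1 RPKM or more), 30 were called by limma at an adjusted p-value under 0.05, 16 higher and 14 lower, where 82.7% of the 7280 genes tested were called (47.7% higher and 35.1% lower). The share of members called was thus close to that of all genes. By particle, 13 of 18 regulatory genes rose and 3 fell, with a median log2 fold change of 0.69, while 2 of 14 core genes rose and 10 fell, with a median of -0.37. The median over all genes tested was 0.17. All fold changes are differences of mean log2(RPKM + 1) and are given with their standard error (SE).

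In the core particle, all 7 beta ring genes fell on the deposited scaling, with log2 fold changes from -0.56 to -0.30, and after quantile normalization 3 of them were called higher and none lower. Of the proteases, Prosbeta1, which cleaves after acidic residues, was at 258, 251 and 277 RPKM in OregonR and at 171, 177 and 181 in non-stop, a log2 fold change of -0.56 ± 0.05 (SE, adjusted p = 3.99e-05). Prosbeta2, the trypsin-like protease, was at 212, 215 and 219.8 RPKM in OregonR and at 157, 171 and 173 in non-stop (-0.37 ± 0.05, adjusted p = 0.000329). Prosbeta5, the chymotrypsin-like protease, was at 339.9, 364 and 332 RPKM in OregonR and at 231, 246 and 249.6 in non-stop (-0.51 ± 0.05, adjusted p = 8.34e-05). For all 3 proteases, each non-stop library was below each OregonR library, though the share of all genes with groups apart was not counted. Prosbeta6, a beta subunit without protease activity, was at 327, 348 and 347 RPKM in OregonR and at 258, 263 and 270.8 in non-stop (-0.37 ± 0.04, adjusted p = 0.000162).

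The alpha ring, whose subunits form the gate of the core, did not move as one. Prosalpha6 fell from 404, 436 and 385 RPKM in OregonR to 240.4, 244 and 247 in non-stop (-0.74 ± 0.05, adjusted p = 1.61e-05), the largest decrease of the constitutive genes. Prosalpha5 fell from 319.7, 279 and 330.2 RPKM to 207, 204 and 211 (-0.58 ± 0.07, adjusted p = 0.000151), and Prosalpha7 fell by 0.21 on the log2 scale. Prosalpha1 went the other way, from 60.5, 61.9 and 65.8 RPKM to 103, 107 and 115 (0.78 ± 0.06, adjusted p = 1.90e-05). Prosalpha3 rose by 0.14 on the same scale (adjusted p = 0.0236). The log2 fold changes of Prosalpha2 and Prosalpha4 were -0.03 ± 0.06 and -0.03 ± 0.08 and were not called.

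The direction for the core depends on how the libraries are scaled, and of the scalings tried only quantile normalization turned core calls. With median-of-ratios scaling, 25 of the 28 calls of constitutive genes were kept and 0 turned direction. With quantile normalization, which forces the libraries to the same distribution of values, 8 core genes were higher in non-stop and 1 was lower, with a median log2 fold change of 0.23, and the calls of Prosalpha7, Prosbeta3, Prosbeta4 and Prosbeta6 turned from lower to higher. Under that setting 81.3% of all genes were called (42.3% higher and 39% lower). The median over all genes was then 0.05. When each library was instead centred within 20 bins of gene length, 10 core genes were lower and 2 higher, the same counts as on the deposited scaling, where 82.4% of all genes were called (41.2% higher and 41.3% lower). Of the regulatory genes, 12 were higher and 3 lower after quantile normalization and 11 higher and 3 lower after centring. Quantile normalization moved Rpn12 to 0.04 ± 0.04 and Rpn7 to -0.11 ± 0.14, neither called, and Rpn11 to -0.46 ± 0.16, called lower. Abundant genes that are no members also fell. Among the 211 other genes whose mean level lay within the range of the 13 core genes without Prosalpha1, a comparison added after the data were seen, the median log2 fold change was -0.38 and 68.7% were called lower, beside a median of -0.37 for those 13 core genes.

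In the base of the regulatory particle, 5 of 6 ATPase genes rose. Rpt1, which lies next to Rpt2 in the ATPase ring, was at 69.9, 78.0 and 71.3 RPKM in OregonR and at 162, 175 and 171 in non-stop (log2 fold change 1.20 ± 0.06, adjusted p = 4.23e-06). Rpt3 was at 42.6, 43.7 and 43.9 RPKM and at 76.1, 76.6 and 77.6 (0.81 ± 0.04, adjusted p = 5.38e-06), and Rpt2 was at 63.8, 72.1 and 50.0 RPKM and at 99.1, 103 and 103 (0.73 ± 0.12, adjusted p = 0.00113). The exception was Rpt4, at 229.6, 235 and 199 RPKM in OregonR and at 140.4, 146 and 147 in non-stop (-0.61 ± 0.07, adjusted p = 0.000125). In OregonR, Rpt4 is also the 1 ATPase gene with a mean level within the range of the core genes without Prosalpha1. In non-stop that range was 146 to 281 RPKM, with Rpt4 just below it (144) and Rpt1 within it (169). In ataxin-7 it was 130 to 374 RPKM, and Rpt2 (145) was within it besides Rpt4. The part of expression level in the fold change of Rpt4 was not tested.

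Of the ubiquitin receptors, Rpn1 and Rpn13 rose and Rpn10 fell slightly. Rpn1, the scaffold that also binds delivery factors, was at 25.0, 25.4 and 19.6 RPKM in OregonR and at 37.3, 38.1 and 36.8 in non-stop (0.67 ± 0.10, adjusted p = 0.000611). Rpn13, which recruits the deubiquitinase Uch-L5, was at 24.2, 28.1 and 23.1 RPKM and at 43.6, 43.8 and 45.4 (0.80 ± 0.08, adjusted p = 6.97e-05). Rpn10 was at 42.0, 43.7 and 40.4 RPKM and at 37.1, 38.9 and 38.3 (-0.14 ± 0.05, adjusted p = 0.0415), a call that was lost without any one of 5 of the 6 libraries.

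In the lid, 5 of 8 genes rose and 1 fell. Rpn8 rose most of all members, from 4.94, 4.97 and 3.89 RPKM in OregonR to 17.2, 16.7 and 14.6 in non-stop (1.62 ± 0.12, adjusted p = 1.58e-05). Rpn5, a scaffold subunit of the lid, rose from 45.6, 45.8 and 49.6 RPKM to 105, 108 and 101 (1.14 ± 0.05, adjusted p = 3.90e-06). Rpn11, the deubiquitinase that pairs with Rpn8, was at 27.0, 24.7 and 17.2 RPKM in OregonR and at 20.3, 21.3 and 18.99 in non-stop, with overlapping groups (-0.16 ± 0.16, adjusted p = 0.378). Rpn8 and Rpn11 form a dimer in the lid, and in these libraries the groups were apart for the RNA of Rpn8 and overlapped for that of Rpn11. Rpn12 fell, with a log2 fold change of -0.50 ± 0.05, and Rpn7 was not called at 0.18 ± 0.13. Among the 3847 other genes with levels in the range of the 16 less abundant regulatory genes, the median log2 fold change was 0.18, beside 0.72 for those 16 genes. Rpn8 overlaps Slik on the other strand, and 16 of the 32 constitutive genes overlap another annotated gene. Whether reads were counted by strand is not given in the sources used here.

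**Figure D3:**
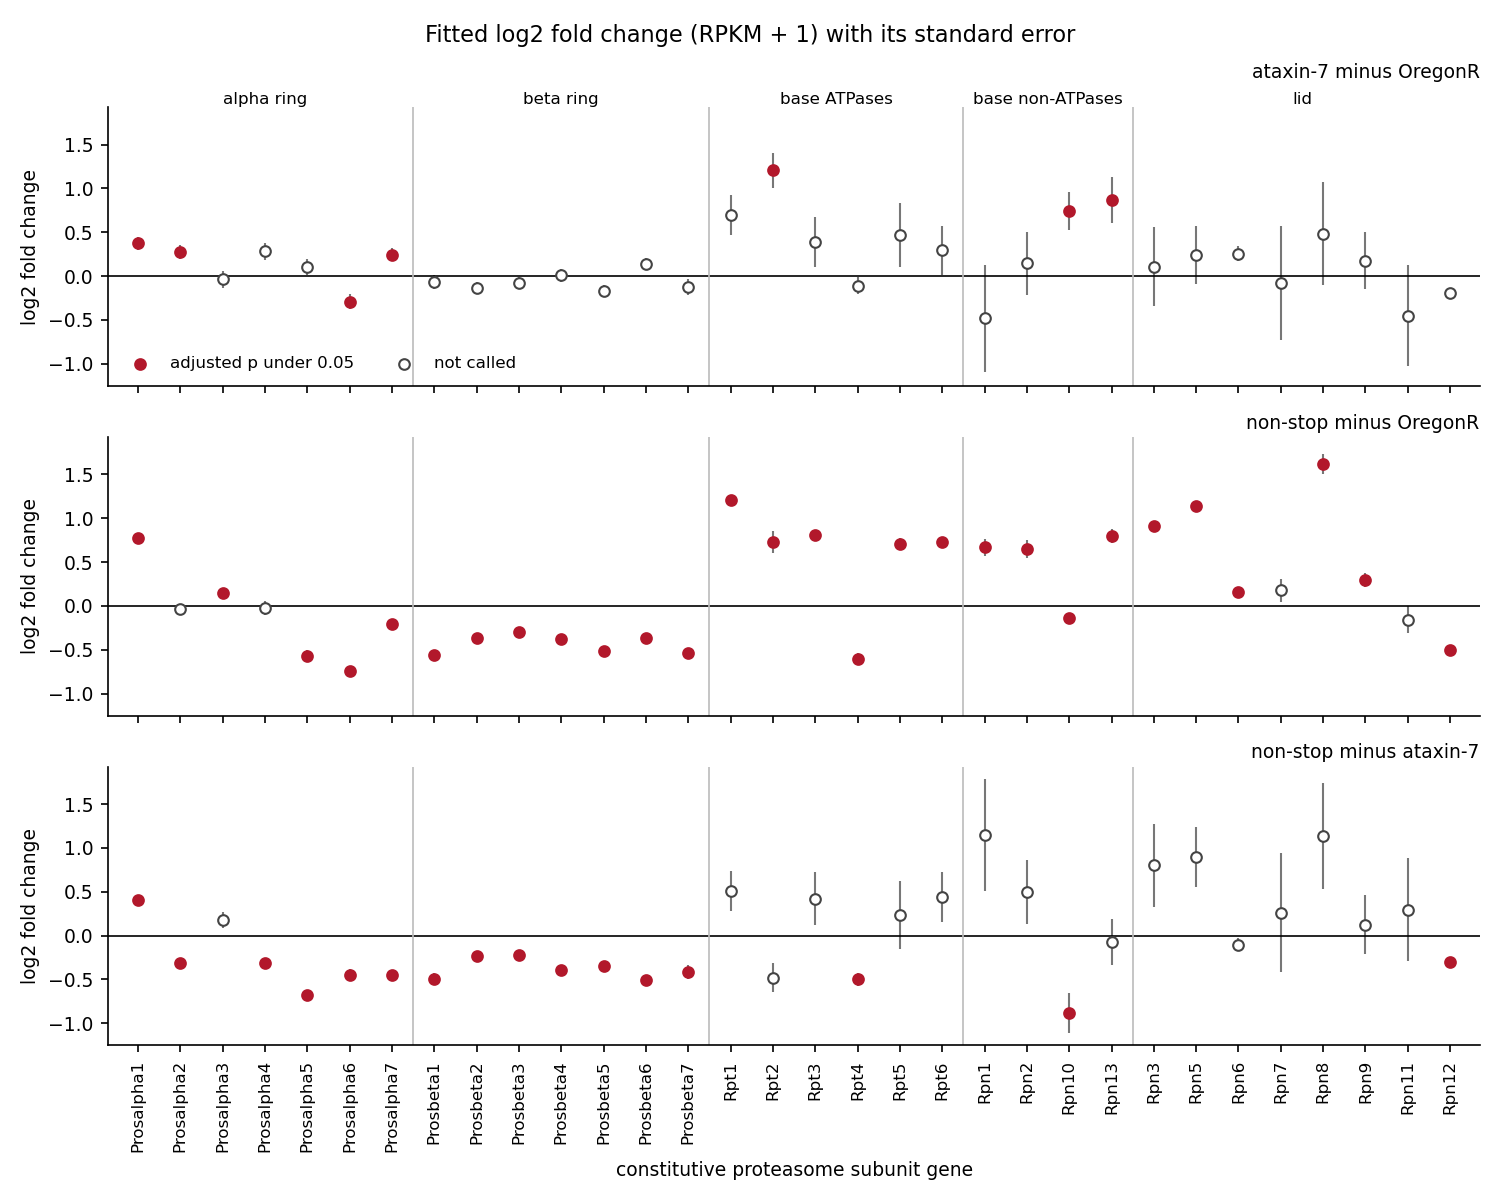
Log2 fold change of log2(RPKM + 1) with its standard error for the 32 constitutive genes in the 3 comparisons, filled where the adjusted p-value was under 0.05. In non-stop minus OregonR the 7 beta ring genes lie between -0.56 and -0.30 and 13 of 18 regulatory genes are filled above 0, while after quantile normalization, not drawn, 8 core genes were called higher.

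The comparison of ataxin-7 with OregonR was made within experiment 1013. In the libraries labelled ataxin-7, fewer members differed from OregonR, and the regulatory genes varied widely between replicates. Of the 34 members tested, 9 were called, 7 higher and 2 lower, where 32.4% of the 7049 genes tested were called (16% higher and 16.4% lower). The constitutive genes accounted for 6 of the higher and 1 of the lower calls. Their median log2 fold change was 0.14, beside 0.05 over all genes tested. It changed sign without ataxin-7 replicate 1 (-0.04) and was 0.27 without replicate 2 and 0.25 without replicate 3. Of the 7 beta ring genes, 0 were called by limma on log2(RPKM + 1) or on the recovered reads (voom), and 1 of them, Prosbeta5, had an unadjusted p under 0.05 in the former. With quantile normalization 10 of 14 core genes were called higher and 0 lower, where 38.9% of all genes were called (20.1% higher and 18.9% lower). With centring within bins of gene length 4 regulatory genes were called higher and 0 core genes were called, where 29% of all genes were called (14.6% higher and 14.4% lower). On the deposited scaling, 272 other genes lay in the range of the 13 core genes without Prosalpha1. Their median log2 fold change was -0.23, with 9.19% called higher and 32.0% lower, beside a median of -0.04 for those 13 core genes.

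The calls fell in the alpha ring and the base. Prosalpha1 was at 84.1, 77.8 and 83.3 RPKM in ataxin-7, above all OregonR libraries (log2 fold change 0.38 ± 0.07, adjusted p = 0.0144). Prosalpha2 and Prosalpha7 rose by 0.28 and 0.25 on the log2 scale, and Prosalpha6 fell, at 312, 328 and 361 RPKM (-0.29 ± 0.09, adjusted p = 0.0427), though its value was 0.07 ± 0.05 after quantile normalization. The largest increase was that of Rpt2, at 186, 131 and 119 RPKM against 50.0 to 72.1 in OregonR (1.21 ± 0.20, adjusted p = 0.0111). Rpn13 was at 72.4, 38.7 and 36.2 RPKM (0.87 ± 0.26, adjusted p = 0.0473) and Rpn10 at 98.3, 70.5 and 51.9 RPKM (0.75 ± 0.22, adjusted p = 0.0421). For these 3 base genes each ataxin-7 library was above each OregonR library. They were picked by their calls from the same libraries, so this adds no separate support. The share of all genes with groups apart was not counted. The calls of Rpn13 and Rpn10 were near the threshold. They were lost with quantile normalization (0.80 ± 0.29, adjusted p = 0.0682, and 0.75 ± 0.26, adjusted p = 0.0623) and each without any one of 4 of the 6 libraries. Rpt1 was also above OregonR in all 3 libraries, at 173, 104 and 93.5 RPKM, and narrowly missed the threshold (0.70 ± 0.22, adjusted p = 0.0552).

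Replicate 1 of ataxin-7 differed from replicates 2 and 3 in the regulatory particle and hardly in the core. Of the 18 regulatory genes, 16 were highest of the group in replicate 1 and 14 were higher there than in any of the other 8 libraries. The exceptions to the first count were Rpt4 and Rpn12. The ratio of replicate 1 to the mean of replicates 2 and 3 had a median of 2.21 over the regulatory genes, with the highest value of 5.54 for Rpn7, and a median of 0.985 over the core genes, with a range of 0.851 to 1.24. Rpn1 was at 48.5, 9.84 and 8.74 RPKM in the 3 replicates, Rpn11 at 44.3, 10.1 and 9.21, and Rpn8 at 19.96, 4.02 and 3.50. For Rpn1 and Rpn11, replicate 1 was thus above every OregonR library and replicates 2 and 3 were below every one. The same replicate had the lowest sum of early zygotic genes and the highest sums of maternal and pole cell genes (lists that share osk and gcl) of its group. Over 7361 genes, its correlations with the non-stop libraries were 0.953 to 0.960. Those with ataxin-7 replicates 2 and 3 were 0.922 and 0.905, so the replicate differed across all genes and not only in the members. The share of all genes highest in this replicate was not counted, so the regulatory counts have no background beside them.

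Without ataxin-7 replicate 1, 4 regulatory genes were called higher than OregonR and 4 lower, where 51.4% of all genes were called (21% higher and 30.4% lower). Those higher were Rpt2 (1.02 ± 0.15), Rpn13 (0.56 ± 0.12), Rpn10 (0.52 ± 0.13) and Rpt1 (0.43 ± 0.09). Those lower were Rpn1 (-1.24 ± 0.15), Rpn11 (-1.15 ± 0.19), Rpn7 (-0.88 ± 0.18) and the lid scaffold Rpn3 (-0.46 ± 0.11). Rpn5 and Rpn8 changed sign without this library, from 0.24 to -0.16 and from 0.48 to -0.23, and were called in neither fit. The core genes changed less, with 2 called higher and 1 lower. The calls were also sensitive to the controls. Without OregonR replicate 1, limma called none of the 34 members at an adjusted p-value under 0.05, while 9 had an unadjusted p under 0.05, and 4.53% of all genes were called.

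In the direct comparison of non-stop with ataxin-7, which also crosses the experiments, the core genes were lower in non-stop. Of the 34 members, 17 were called, 2 higher and 15 lower, where 32.2% of the 6968 genes tested were called (15.5% higher and 16.7% lower). Of the 14 core genes, 12 fell and Prosalpha1 rose (0.40 ± 0.06, adjusted p = 0.00695), and Prosalpha3 was not called. The core median was -0.37, beside 0.12 over all genes tested. Among the 209 other genes in the range of the 13 core genes without Prosalpha1, the median was -0.15 and 27.3% were called lower. The median of those 13 core genes was -0.39. The largest decrease in the core was that of Prosalpha5, at 319, 319 and 357 RPKM in ataxin-7 and 207, 204 and 211 in non-stop (-0.68 ± 0.06, adjusted p = 0.00163). With quantile normalization 4 core genes were lower and 1 was higher, with a median of -0.08, where 37% of all genes were called (19.5% higher and 17.5% lower). With centring within bins of gene length 4 core genes were again lower and 1 higher, where 23.8% were called (11.3% higher and 12.5% lower). Of the regulatory genes, Rpn10 (-0.88 ± 0.22, adjusted p = 0.0328, a call lost without any one of 4 of the 6 libraries), Rpt4 (-0.50 ± 0.07, adjusted p = 0.00571) and Rpn12 (-0.30 ± 0.05, adjusted p = 0.00752) fell and 0 rose by limma, with Rpn12 at -0.05 ± 0.05 after quantile normalization.

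The regulatory result rests on ataxin-7 replicate 1. Without it, 13 of 18 regulatory genes were higher in non-stop and 4 lower, where 81.1% of all genes were called (52.7% higher and 28.4% lower), and the core genes were called 12 lower and 2 higher. The log2 fold change of Rpn1 was then 1.90 ± 0.07, that of Rpn8 1.85 ± 0.09, that of Rpn3 1.36 ± 0.07 and that of Rpn5 1.30 ± 0.07. With all libraries, the same 4 genes had values of 1.15 ± 0.64, 1.14 ± 0.61, 0.80 ± 0.47 and 0.90 ± 0.35 and were not called. Rpt2 and Rpn10, which were above OregonR in every ataxin-7 library, were called lower in non-stop without this library (-0.29 ± 0.06 and -0.65 ± 0.11).

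The paralogs with a T or R suffix were nearly silent in these embryos, with the exceptions of Prosalpha1R and Rpt3R. Reads were recovered from the RPKM values to compare them. Of the 15 paralogs, Prosalpha3T, Prosbeta4R1 and Prosbeta4R2 were listed at 0 in all 9 libraries, and a further 7 had between 1 and 7 reads over the 9 libraries together. Prosalpha6T had 19 reads and Rpt6R 86, and Prosbeta2R2 had more, between 12 and 61 in each library. The partner of Prosbeta2R2, Prosbeta2, had 163011 reads, which per kilobase of exons was 767 times as many (95% interval 681 to 868, counting error only). For Rpt6R and Rpt6 the ratio was 1005 (814 to 1257). Against a floor of 3 reads over the 9 libraries, Prosalpha3 was per kilobase of exons at least 29970.5-fold higher than Prosalpha3T. Leaving out Prosalpha1R, each of the 14 other paralogs was lower than its constitutive partner in all 9 libraries. The 13 paralogs other than Prosalpha1R and Rpt3R did not reach the level needed for a test in any comparison. Of 15 testis genes used as markers, 2 were listed at 0 in all libraries, and the summed RPKM of the list was between 4.95 and 5.21 in OregonR, 0.621 to 2.35 in ataxin-7 and 1.12 to 1.36 in non-stop. Most of this sum came from mia, the 1 testis gene that passed the filter against OregonR. Its means were 3.94 RPKM in OregonR, 1.24 in ataxin-7 and 0.85 in non-stop. The sum is therefore not a measure of the list as a whole, and fzo was higher in non-stop (0.278 against 0.0213 RPKM in OregonR).

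**Figure D4:**
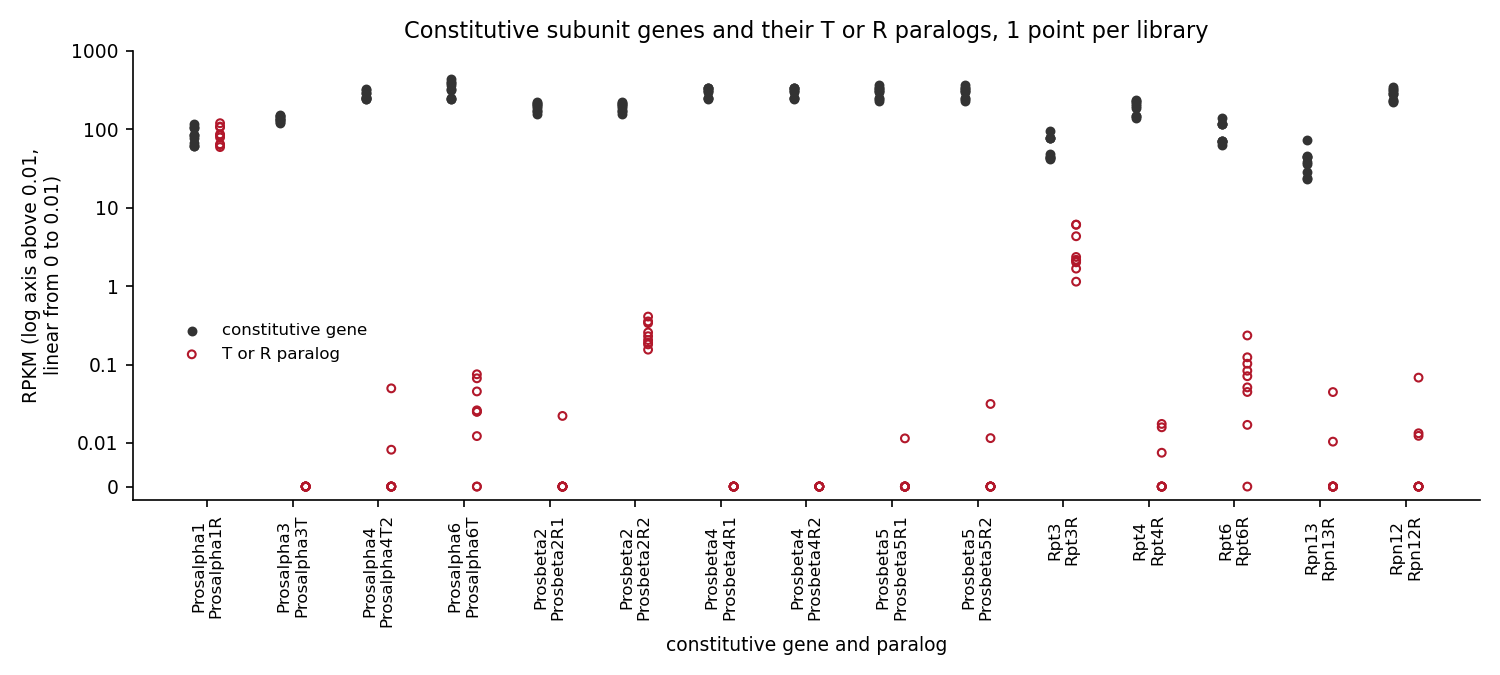
RPKM of the 15 T or R paralogs (open) beside their constitutive partners (filled) in the 9 libraries, on an axis that is logarithmic above 0.01 and linear below. Prosalpha1R overlaps Prosalpha1, Rpt3R lies between 1.14 and 6.08 RPKM, and 3 paralogs are at 0 throughout.

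Prosalpha1R, a neighbouring copy of Prosalpha1 on chromosome arm 2R, had between 49.4% and 50.9% of the summed RPKM of the pair in every library. Its values of 59.2, 62.8 and 64.4 RPKM in OregonR, 86.1, 78.5 and 83.1 in ataxin-7 and 106, 108 and 119 in non-stop followed those of Prosalpha1. Its log2 fold changes were 0.40 ± 0.07 in ataxin-7 and 0.83 ± 0.06 in non-stop against OregonR (adjusted p = 0.0130 and 1.82e-05). Where copies are near-identical, counting can split reads between them, so the values of both are uncertain as values of single genes.

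Rpt3R (FBgn0037742, arm 3R in the BDGP6 annotation) was the 1 paralog besides Prosalpha1R that passed the filter for a test, and it was lower in both other groups than in OregonR. It was at 6.08, 6.05 and 4.32 RPKM in OregonR, at 1.14, 2.17 and 2.35 in ataxin-7, and at 1.67, 2.10 and 2.01 in non-stop. Every library of either group was below every OregonR library. The log2 fold change was -1.18 ± 0.25 in ataxin-7 (adjusted p = 0.0180) and -1.14 ± 0.14 in non-stop (adjusted p = 0.000199), and the direct difference of non-stop from ataxin-7 was 0.05 ± 0.21 (adjusted p = 0.880). Without ataxin-7 replicate 1 the value against OregonR was -0.98 ± 0.17. These levels rest on 573 to 928 reads in each OregonR library, 162 to 339 in ataxin-7 and 122 to 146 in non-stop.

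Its constitutive partner Rpt3 did not follow. Rpt3 was at 93.8, 48.1 and 41.3 RPKM in ataxin-7 (log2 fold change 0.39 ± 0.29, adjusted p = 0.331) and rose in non-stop as given above. The ratio of Rpt3 to Rpt3R was 7.003, 7.21 and 10.2 in OregonR, 82.3, 22.2 and 17.6 in ataxin-7, and 45.6, 36.5 and 38.6 in non-stop. The lowest ratio of each other group was above the highest of OregonR. By an exact permutation test of the log2 ratio (3 libraries a group, two-sided), p was 0.1 against OregonR for each group, which is the smallest this design allows, and the adjusted p over the 6 tests of both pairs was 0.3. Rpt3R overlaps Alg12 by 20 bases on the other strand. Alg12 had means of 4.77 ± 0.26 RPKM (OregonR), 6.41 ± 0.81 (ataxin-7) and 6.46 ± 0.24 (non-stop), each with its SD (n = 3), the opposite direction to Rpt3R.

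**Figure D5:**
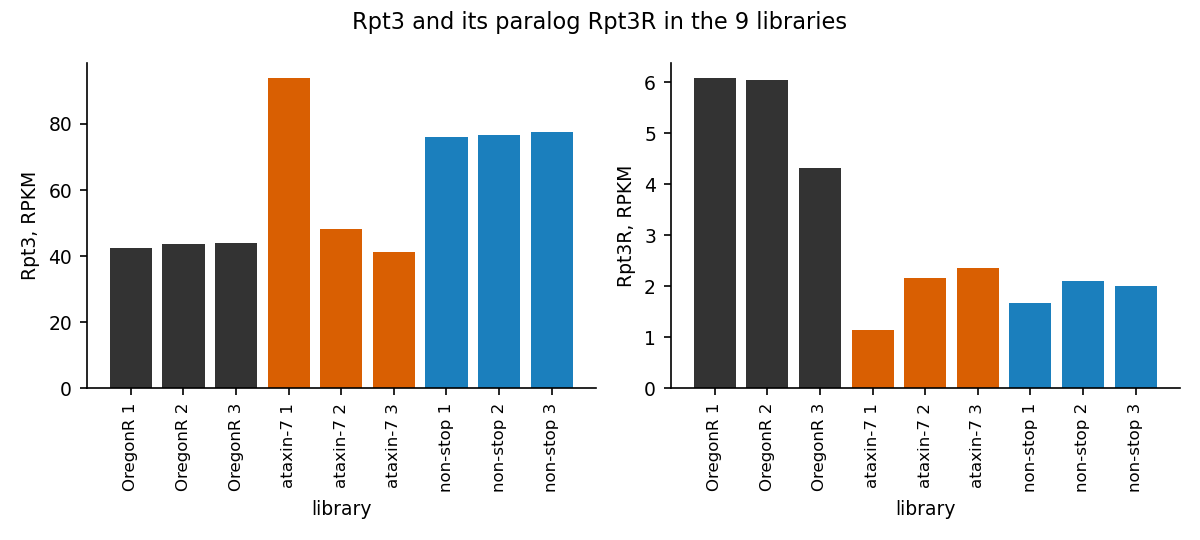
RPKM of Rpt3 (left) and Rpt3R (right), 1 bar per library. Rpt3R is between 4.32 and 6.08 RPKM in OregonR and between 1.14 and 2.35 in the other 6 libraries, and Rpt3 is highest in ataxin-7 replicate 1 at 93.8 RPKM.

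Genes that work with the proteasome were read from the same fits, from lists chosen by function. Delivery factors carry ubiquitinated proteins to the proteasome or extract them from complexes. In non-stop, all 6 delivery genes in the table rose against OregonR, where 47.7% of all genes were called higher, with a median log2 fold change of 0.90 (4 with median-of-ratios scaling and 5 with quantile normalization). In ataxin-7 1 of the 6, Rad23, was called, higher, where 16% of all genes were, and the median was 0.46. Without ataxin-7 replicate 1, 2 of the 5 delivery genes tested were called higher, where 21% of all genes were, and the median was -0.08. Rad23, a shuttle that binds Rpn1, was at 143 ± 4.68 RPKM in OregonR and 255 ± 1.76 in non-stop (log2 fold change 0.83 ± 0.04, adjusted p = 4.48e-06), and at 213 ± 34.5 in ataxin-7 (0.56 ± 0.12, adjusted p = 0.0175).

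Among the assembly and regulatory genes, 4 of 9 rose and 3 fell in non-stop, beside 47.7% and 35.1% of all genes. Ecm29, 1 of the 4, had means of 0.82 ± 0.11 RPKM in OregonR and 2.81 ± 0.31 in non-stop (SD, n = 3). It passed the filter through the non-stop libraries alone, so its call as higher adds no support. Ecm29 was not tested in ataxin-7 against OregonR. In ataxin-7, 3 of 8 rose and 2 fell, beside 16% and 16.4%, and those counts were 1 and 1 with quantile normalization, 4 and 1 without ataxin-7 replicate 1, and 0 and 0 by limma without OregonR replicate 1, where 5 of the 8 had an unadjusted p under 0.05. Pomp, the chaperone of core assembly, fell in non-stop from 141 ± 4.83 to 112 ± 4.45 RPKM (-0.33 ± 0.05, adjusted p = 0.000521), a call lost with quantile normalization (-0.05 ± 0.04). The deubiquitinases that bind the regulatory particle went in opposite directions, with Usp14 higher (1.19 ± 0.08) and Uch-L5 lower (-1.27 ± 0.05) in non-stop. In ataxin-7 Usp14 was also higher (0.86 ± 0.24, adjusted p = 0.0365) and Uch-L5 lower (-0.26 ± 0.08, adjusted p = 0.0471), both near the threshold. The Uch-L5 call was lost in each of 6 alternatives read for it, among them quantile normalization (-0.03 ± 0.05) and leaving out ataxin-7 replicate 1 (-0.20 ± 0.08, adjusted p = 0.0625). The Usp14 call held without that replicate (0.59 ± 0.12, adjusted p = 0.00514) and was lost with quantile normalization (adjusted p = 0.0507), voom (adjusted p = 0.0515) and without OregonR replicate 1 (adjusted p = 0.121). The transcription factor cnc, the fly relative of the mammalian factor that induces proteasome genes, was at 1.47 ± 0.13 RPKM in OregonR and 5.55 ± 0.61 in non-stop (1.40 ± 0.10, adjusted p = 1.69e-05), and its partner maf-S fell in non-stop (-0.77 ± 0.05).

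The ubiquitin genes divided by kind. In non-stop the polyubiquitin genes Ubi-p63E (20.1 ± 4.77 RPKM in OregonR, 209.7 ± 15.9 in non-stop, 3.34 ± 0.15) and Ubi-p5E (1.54 ± 0.04) rose, as did the activating enzyme Uba1 (0.90 ± 0.07), while RpL40 (-0.57 ± 0.05) and RpS27A (-0.46 ± 0.06), which encode ubiquitin fused to ribosomal proteins, fell. After quantile normalization RpL40 was no longer called (-0.02 ± 0.03) and RpS27A was called higher (0.24 ± 0.04). In ataxin-7 against OregonR 0 of these 5 genes were called by limma or voom, and 0 had an unadjusted p under 0.05. Without ataxin-7 replicate 1, Ubi-p63E was called higher (0.73 ± 0.18) and Uba1 lower (-0.33 ± 0.12).

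Subunits of the COP9 signalosome and of eIF3, complexes whose scaffold resembles that of the lid, were mostly lower in non-stop, though the eIF3 genes divided into 3 higher and 3 lower after quantile normalization. Of the 8 COP9 genes tested, 7 fell and 1 was not called, with a median log2 fold change of -0.59. All 8 eIF3 genes fell, with a median of -0.43. Over all genes tested, 35.1% were called lower. The eIF3 genes had OregonR means of 186 to 325 RPKM. Among the 211 other genes in the range of the core genes without Prosalpha1, 68.7% were called lower, with a median of -0.38. The COP9 genes called lower numbered 6 to 8 under the other scalings. In ataxin-7, 3 COP9 genes and 1 eIF3 gene fell, where 16.4% of all genes were called lower. After quantile normalization 1 COP9 gene was lower and 4 eIF3 genes were higher, where 18.9% and 20.1% of all genes were. Without ataxin-7 replicate 1, 3 COP9 genes were lower, and 1 eIF3 gene was higher and 1 lower. In that fit 21% of all genes were called higher and 30.4% lower. The lid genes of the proteasome had a median of 0.24 in non-stop, with 5 higher and 1 lower, beside these counts. Apart from Rpn12, the lid genes lay in OregonR below the range of the core genes without Prosalpha1. The tested COP9 genes also lay below it, with OregonR means of 14.7 to 116 RPKM. Among the 3847 other genes in the range of the 16 less abundant regulatory genes, 33.5% were called lower in non-stop, with a median of 0.18. The part of expression level in this difference was not tested.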

How the data were processed

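Symbols were taken by gene identifier from the BDGP6 annotation (Ensembl), and 15001 of 15682 identifiers had one. The authors deposited RPKM values for 9 libraries; their processing notes name dm3, CASAVA 1.8.2, TopHat2 2.0.13 and edgeR 3.14.0, and the counter and annotation are not given in the sources used here. Whole reads were recovered for 12979 of 13809 genes above 0 (relative tolerance 1e-12; the other 830 had reads in 1 library), and for 85.6% of 4187 intron-containing genes the implied length came within 5% of the genomic span. A gene of 1 kb with 3 reads had 0.0341 to 0.0767 RPKM, which covers counting error only.

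Each pair of groups was compared with limma 3.58.1 in R 4.3.3 (lmFit, eBayes with trend, two-sided) on log2(RPKM + 1), keeping genes that reached 1 RPKM in 3 or more of the 6 libraries, with no covariate. P-values were adjusted by Benjamini-Hochberg over all genes tested and called under 0.05. Libraries were grouped by title. Named in full were the 3 constitutive genes with the largest called changes in each direction and comparison, pairs with a tested paralog, the proteases, Rpn11, the ubiquitin receptors, and the most and least abundant constitutive genes. The alternatives were other pseudocounts, filters, scalings, a replicate block, 1 fit of all libraries, voom on the recovered reads, and leaving out each library. The members and lists were chosen with earlier results of these data known. The scripts were tested on simulated data. These were not set to the spread between replicates or the share of changed genes seen here, so they check the code only. Tables were handled in Python 3.11.15 with pandas 2.3.3, and exact tests with scipy 1.17.1.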

Additional observations from a re-analysis of the deposited data

How the results depend on the processing

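The count of members called for ataxin-7 against OregonR (9) was 4 without a filter, 14 with quantile normalization, 5 with centring within 20 bins of gene length, 14 with all 9 libraries in 1 fit, and ran from 0 to 13 when 1 library was left out (0 without OregonR replicate 1, 1 without OregonR replicate 2 or ataxin-7 replicate 2, and 13 without ataxin-7 replicate 1). For non-stop against ataxin-7 (17) it was 8 with quantile normalization, 9 with centring, and 12 to 32 when 1 library was left out, with 32 without ataxin-7 replicate 1. For non-stop against OregonR (30) it was 22 with all 9 libraries in 1 fit, 26 with quantile normalization, and 27 to 30 when 1 library was left out. The median log2 fold change of the constitutive genes in non-stop against OregonR (0.06) was 0.38 with quantile normalization and -0.047 with median-of-ratios scaling, and that against ataxin-7 (-0.16) was -0.010 with quantile normalization. In ataxin-7 against OregonR the median (0.14) ran from -0.04 to 0.27 when 1 library was left out. The cause of these moves was not tested.

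With quantile normalization the fold change changed sign for 9 of the 34 members in ataxin-7 against OregonR, 11 in non-stop against OregonR and 2 in non-stop against ataxin-7. Among the genes named in full, the log2 fold change of Prosalpha6 (0.073), Prosbeta1 (0.22), Prosbeta2 (0.064), Prosbeta5 (0.15) and Rpt4 (0.14) turned positive in ataxin-7 against OregonR, that of Prosbeta2 (0.029), Prosbeta5 (0.062) and Prosbeta6 (0.27) in non-stop against OregonR, and that of Rpt3R turned to -0.19 in non-stop against ataxin-7. Some values changed sign when 1 library was left out. Rpn5 (-0.16 to 0.49) and Rpn8 (-0.23 to 0.88) in ataxin-7 against OregonR, and Rpn13 (-0.25 to 0.24) and Rpt3R (-0.16 to 0.17) in non-stop against ataxin-7, did so without ataxin-7 replicate 1. Rpn11 (-0.085 to 0.99) did so in the latter comparison without ataxin-7 replicate 2 or 3. Pairing of the libraries by replicate number was not shown. Same-numbered libraries had correlations of their deviations from -0.24 to 0.43, and differently numbered ones from -0.47 to 0.47. With 3 libraries a group these ranges cannot exclude a pairing. With a replicate block, 1 member was called in ataxin-7 against OregonR, 28 in non-stop against OregonR and 13 in non-stop against ataxin-7. Depth limits the paralogs with few reads.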
